A study of Mus musculus with 2 samples.

Results

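Bidirectional promoters, stretches of DNA from which 2 protein-coding genes start in opposite directions, were described in DNase-seq of MN1 cells. The members were head-to-head pairs of protein-coding genes of GENCODE M21 on chromosomes 1 to 19. The outermost transcription start site of the minus-strand gene had to lie 1 bp to 1 kb before that of the plus-strand gene. This gave 734 pairs with 1448 genes, which is 6.96% of the 20807 protein-coding genes on these chromosomes. In all, 20 genes belonged to 2 pairs each. The annotation lists 3 pairs of symbols (Hdlbp/Sept2, Chtf8/Utp4 and Arl16/Hgs) under 2 gene identifiers, so 731 pairs of symbols were distinct. The region of a pair was the span between the start sites plus 500 bp on each side. The lengths of the regions summed to 0.876 Mb, with stretches shared by overlapping regions counted each time. Pairs are written with the minus-strand gene first.

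The series holds 1 group, MN1, an immortalized mouse line of strain B6NCrl, with 2 biological replicates of 1 library each. The labels give no tissue, treatment, age or sex, and name a pair of Illumina instrument models for replicate 2 but no model for replicate 1. DNase I cuts DNA that is free of tightly wrapped nucleosomes, and the assay reads where it cut. Each library came as a list of peaks, nearly all 150 bp wide, and a list of hotspots, the broader stretches enriched in cuts. Replicate 1 had 166552 peaks and 137046 hotspots on the 19 autosomes, and replicate 2 had 159574 peaks and 132377 hotspots. Read depth is unknown. Start sites of 6 of 6 neuronal and 4 of 6 motor neuron genes carried a peak in both libraries (Mnx1 and Slc5a7 did not), against 1 of 6 genes of other cell types, the glial gene Gfap. The share over all protein-coding genes was 53.9%, so the motor neuron count is near the background.

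A promoter is the sequence on which RNA polymerase II and its general factors assemble. In a bidirectional promoter, separate assemblies face away from each other and share 1 stretch without nucleosomes between them. Such promoters are usually CpG islands with few TATA boxes. Their genes often serve DNA repair, mitochondria, translation and other tasks of every cell. ETS factors, NRF1, NFY, SP/KLF factors and YY1 are known to bind many promoters of this kind.

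The spans between the start sites of 6 open and 4 closed pairs are printed as examples. Open means a peak in both libraries, and closed means none in either. All are read 5′ to 3′ on the plus strand of GRCm38 (mm10), with capitals for matches on either strand to the factor motifs searched. The first 4 were the pairs with the highest-ranked peaks among those with a span of 30 to 300 bp and no predicted gene name. A predicted name is Gm with a number, or ends in Rik. Brca1/Nbr1 and Mrps12/Sars2, the last a mitochondrial ribosomal protein and a mitochondrial tRNA synthetase, are textbook pairs.
Rita1/Ddx54, chr5:120612590-120612738: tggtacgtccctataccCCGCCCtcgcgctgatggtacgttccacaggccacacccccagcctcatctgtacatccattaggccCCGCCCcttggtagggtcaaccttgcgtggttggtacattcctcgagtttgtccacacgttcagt
Fbxo24/Lrch4, chr5:137629003-137629120: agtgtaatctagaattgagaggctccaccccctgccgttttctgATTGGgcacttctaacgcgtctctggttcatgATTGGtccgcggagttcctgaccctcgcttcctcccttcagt
Nabp2/Rnf41, chr10:128411493-128411656: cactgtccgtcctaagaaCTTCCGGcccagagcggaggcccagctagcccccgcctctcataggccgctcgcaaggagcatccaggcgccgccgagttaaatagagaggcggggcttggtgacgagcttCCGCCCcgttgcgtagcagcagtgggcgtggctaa
Aamp/Pnkd, chr1:74284739-74284929: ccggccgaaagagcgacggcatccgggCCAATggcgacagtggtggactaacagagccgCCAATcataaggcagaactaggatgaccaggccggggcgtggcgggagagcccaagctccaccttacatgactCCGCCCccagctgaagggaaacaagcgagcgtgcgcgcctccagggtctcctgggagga
Brca1/Nbr1, chr11:101551956-101552148: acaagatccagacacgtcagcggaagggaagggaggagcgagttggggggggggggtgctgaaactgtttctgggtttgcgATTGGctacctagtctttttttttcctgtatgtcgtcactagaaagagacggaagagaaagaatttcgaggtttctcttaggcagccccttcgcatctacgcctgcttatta
Mrps12/Sars2, chr7:28741821-28741991: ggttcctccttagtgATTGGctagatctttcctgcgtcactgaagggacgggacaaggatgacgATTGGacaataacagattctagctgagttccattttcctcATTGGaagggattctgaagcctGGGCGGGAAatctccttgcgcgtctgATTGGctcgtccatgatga
Rita1/Ddx54 held 2 SP/KLF matches, Fbxo24/Lrch4 held 2 NFY and Brca1/Nbr1 held 1 NFY. Nabp2/Rnf41 held an ETS and an SP/KLF match, and Aamp/Pnkd held 2 NFY and 1 SP/KLF. Mrps12/Sars2 held 4 NFY matches, and its SP/KLF and E2F matches overlap in 1 run of capitals.

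Of the closed spans, the first 3 belong to the regions with the highest CpG observed/expected ratio among closed pairs without a predicted name. The last was the closed textbook pair.
Hist1h2bq/Hist1h2ao, chr13:21810198-21810464: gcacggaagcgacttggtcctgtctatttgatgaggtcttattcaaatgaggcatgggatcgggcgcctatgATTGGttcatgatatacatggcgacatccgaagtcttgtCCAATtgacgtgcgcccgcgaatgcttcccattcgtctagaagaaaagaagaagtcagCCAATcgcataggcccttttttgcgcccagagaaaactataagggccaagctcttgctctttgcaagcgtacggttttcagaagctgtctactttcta
Hist1h2ap/Hist1h2br, chr13:21833508-21833742: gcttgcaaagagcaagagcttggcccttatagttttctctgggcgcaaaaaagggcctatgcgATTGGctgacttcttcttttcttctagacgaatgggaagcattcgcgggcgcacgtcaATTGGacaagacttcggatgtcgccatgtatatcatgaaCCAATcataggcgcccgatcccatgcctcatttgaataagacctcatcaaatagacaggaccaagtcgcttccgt
Ppp1r3d/Fam217b, chr2:178414473-178414523: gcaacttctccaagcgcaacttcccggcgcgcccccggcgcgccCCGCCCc
Col4a4/Col4a3, chr1:82586850-82586920: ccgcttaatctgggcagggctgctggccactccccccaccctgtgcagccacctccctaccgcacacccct
Each histone span held 3 NFY matches. Read on the opposite strand, all 235 bases of the Hist1h2ap/Hist1h2br span occur unbroken in the 267 bases of the other histone span. The Ppp1r3d/Fam217b span held 1 SP/KLF match, and the collagen span held none of the 11 motifs.

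Most bidirectional promoters were open in MN1 cells. A peak lay in the region in both libraries in 685 of the 734 pairs (93.3%, 95% Wilson interval 91.3 to 94.9%). The intervals given here cover counting over pairs or start sites only, since genes are not replicates of the cells. Replicate 1 had a peak in 689 pairs (93.9%) and replicate 2 in 686 (93.5%). Neither library had one in 44 pairs (5.99%), and 5 pairs had one in a single library. Hotspots gave the same count, 685 pairs in both libraries. As a background, 53.9% of all protein-coding genes had a peak in both libraries within 500 bp of the outermost start site, and 54.5% had a hotspot.

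For a comparison over equal windows, each start site was scored within 500 bp to each side. Of the 1448 start sites in pairs, 1344 (92.8%, interval 91.4 to 94.0%) had a peak in both libraries, against 9875 of 19359 (51.0%, interval 50.3 to 51.7%) of all other protein-coding genes. The window of a paired gene usually reaches its partner's start site, so partners often share a peak and are not independent. A peak at the partner then counts for the gene too, which by itself can raise the paired shares. Genes that the rule passes over because their start overlaps that of a head-to-head partner by up to 1 kb came close, with 783 of 873 (89.7%, interval 87.5 to 91.5%). Coding genes head to head with a long noncoding RNA gene within 1 kb were open at 573 of 754 start sites (76.0%). Those 1 to 5 kb from a head-to-head coding partner were open at 439 of 746 (58.8%). Genes in none of these sets were open at 8080 of 16986 (47.6%).

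Pairs just outside the limits of the rule also had peaks in both libraries. The widest pair, Btf3l4/Txndc12 at 987 bp, had 5 peaks in each library, and the closest pair outside, Gpr108/Trip10 at 1009 bp, had 3 in replicate 1 and 4 in replicate 2. By percentile of score within each list, the best peaks of Dirc2/Hspbap1 (90.10 in replicate 1 and 91.36 in replicate 2) and Ppt2/Prrt1 (76.42 and 80.76), also outside, ranked below the widest pairs inside. Those of Gpr108/Trip10 (97.97 and 98.28) and Sgsm2/Tsr1 (95.88 and 97.25) did not. At the other limit, Bag4/Lsm1 with start sites 1 bp apart had 1 peak in each library, and Nsa2/Gfm2, which start at the same base, had 2 in each.

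CpG content differed between the sets. The CpG observed/expected ratio had a median of 0.78 around start sites of pairs and 0.53 around all others. Within each of 5 bins of this ratio the paired start sites were open more often. Below a ratio of 0.2, 7 of 28 paired start sites (25.0%, interval 12.7 to 43.4%) were open, against 6.27% of 4671 others. Between 0.4 and 0.6 the shares were 83.6% and 58.2%, and from 0.8 upward they were 97.7% and 88.8%. Weighted to the CpG bins of the pairs, the other genes would be open at 78.6% of start sites, so the difference was 14.2 percentage points, against 41.8 points unweighted.

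**Figure D1:**
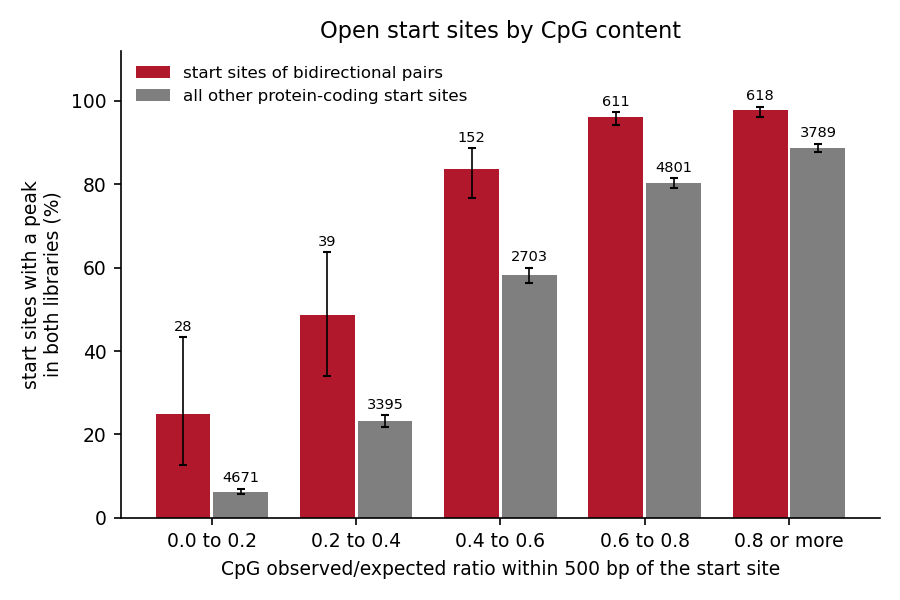
Share of start sites with a peak in both libraries (y axis, percent) by CpG observed/expected ratio within 500 bp (x axis). Red bars are start sites of bidirectional pairs and grey bars all other protein-coding start sites, error bars are 95% Wilson intervals and numbers are start sites. The red bar is the higher one in each bin, from 25.0% against 6.27% at the left to 97.7% against 88.8% at the right.

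The peaks at open pairs also ranked high. The authors' peak score ranges from 1 to 150 and has no stated normalization, so each peak was given its percentile within its own list. The best peak of an open pair had a median percentile of 97.97 in replicate 1 and 97.51 in replicate 2, with lowest values of 24.20 and 40.70. Over equal windows, the best peak was in the top 10% of its list in both libraries at 1240 of the 1344 open start sites of pairs (92.3%), against 68.5% at other open start sites and a background of 71.4%. Weighted to the CpG bins of the pairs, the share at other open start sites was 76.8%. It was 78.3% for head-to-head coding genes with overlapping starts and 83.9% for those beside a long noncoding RNA gene. With a coding partner 1 to 5 kb away it was 69.0%. The hotspot at an open start site of a pair had a median width of 1660 bp in replicate 1 and 1533 bp in replicate 2, against 1325 bp and 1271 bp at other open start sites. Widths were similar for head-to-head coding genes with overlapping starts (1606 and 1488 bp) and those beside a long noncoding RNA gene (1528 and 1460 bp).

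**Figure D2:**
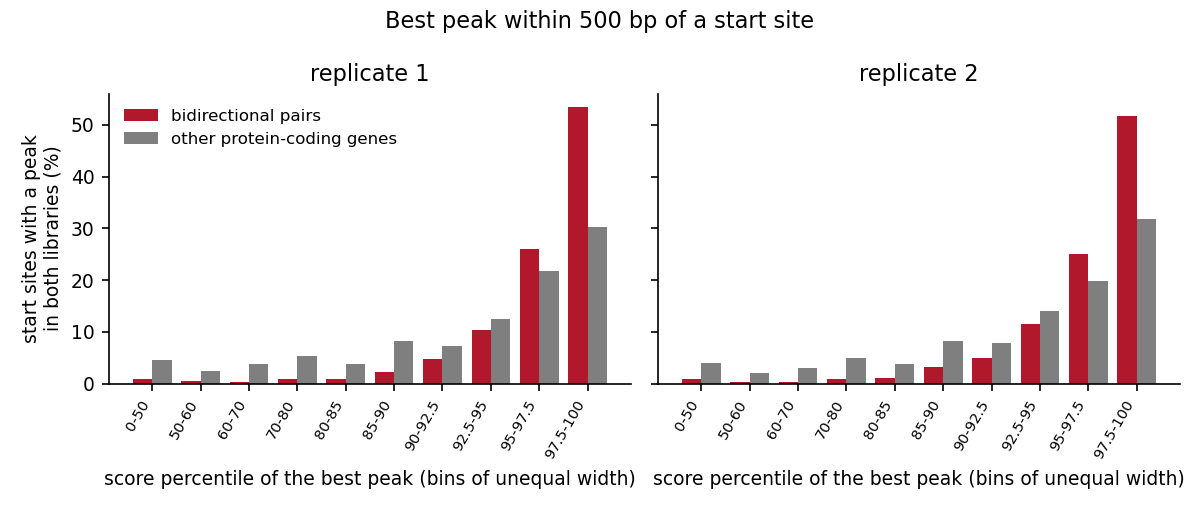
Share of open start sites (y axis, percent) by the score percentile of their best peak (x axis, bins of unequal width), for bidirectional pairs in red and other protein-coding genes in grey, 1 panel per library. In both panels the pairs are more frequent in the bins above 95, and the other genes in the bins below it.

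The highest mean percentile belonged to Hjurp/Trpm8. Its best peak stood at percentile 100 in replicate 1 and 99.99 in replicate 2, 2.5 and 22.5 bp into Hjurp from its start site. Hjurp loads the centromeric histone in dividing cells, and Trpm8 is a cold-sensing ion channel of sensory neurons. A peak does not tell which of the genes is transcribed. Rita1/Ddx54, a Notch pathway regulator and an RNA helicase, and Nabp2/Rnf41, a single-stranded DNA binding protein of DNA repair and a ubiquitin ligase, each reached 99.98 in replicate 1 and 99.96 in replicate 2. The same values were found at Fbxo24/Lrch4, an F-box protein and a leucine-rich repeat protein. The other pairs of the 8 highest without a predicted name were Thap2/Zfc3h1, Aamp/Pnkd, Dcaf6/Mpc2 and Txndc9/Eif5b, with percentiles from 99.91 to 99.99. They hold the translation initiation factor Eif5b, the mitochondrial pyruvate carrier subunit Mpc2 and the nuclear RNA decay factor Zfc3h1.

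Of 24 head-to-head pairs known from textbooks, 12 met the rule, 11 start inside each other in this annotation and Ung/Alkbh2 lies further apart. Among the 12, 11 were open. Atm/Npat, the DNA damage kinase and the activator of histone genes, had 1 peak in each library, at percentile 99.85 in replicate 1 and 99.91 in replicate 2. Mcm4/Prkdc, a subunit of the replicative helicase and the kinase of DNA end joining, had 2 in each, the best at 99.59 and 99.91. Both libraries placed the Atm/Npat peak between the start sites, 170.5 bp from that of Atm. Brca1/Nbr1, a DNA repair gene and an autophagy receptor, had 3 peaks in each library. Its best peak lay 15.5 bp from the Brca1 start site, inside the span, in replicate 2 (percentile 98.28), but 561.5 bp beyond the Nbr1 start site in replicate 1 (98.96). Col4a4/Col4a3, the collagen chains of the kidney filter, had no peak and no hotspot in either library.

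The strongest peak sat between the start sites in most pairs, except where these were very close. The span made up 16.0% of the length of the open regions. The best peak was centred in it in 446 of 685 open pairs in replicate 1 (65.1%) and in 406 in replicate 2 (59.3%). With start sites 1 to 50 bp apart (123 open pairs) the shares were 35.0% and 25.2%, and with 201 to 300 bp between them 80.0% and 76.7%. In 583 pairs (85.1%) it touched the span in both libraries. It was nearer to the minus-strand start site in 338 pairs, nearer to the plus-strand one in 326 and equally far in 21. The regions are centred on the span by construction.

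Peaks other than the best one of a pair lay mostly to the sides. Of the 726 further peaks in replicate 1, 94 (12.9%) were centred between the start sites, 266 (36.6%) lay over 200 and up to 400 bp outside them, and 284 (39.1%) lay over 400 bp outside. The 763 of replicate 2 gave 11.5%, 38.8% and 37.4%. The span itself made up only 16.0% of the length of the open regions. Start sites lay a median of 128 bp apart, less than the width of 1 peak, so the best peak often left little room there. Most further peaks would thus fall outside by geometry alone. Those between the start sites had a median percentile of 92.43 in replicate 1 and 92.98 in replicate 2, and those over 400 bp outside had 65.83 and 73.53. Among 169 pairs with exactly 2 peaks in each library, 93 (55.0%) had 1 between the start sites and 1 to a side, and the centres lay a median of 460 bp apart in replicate 1 and 440 bp in replicate 2.

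**Figure D3:**
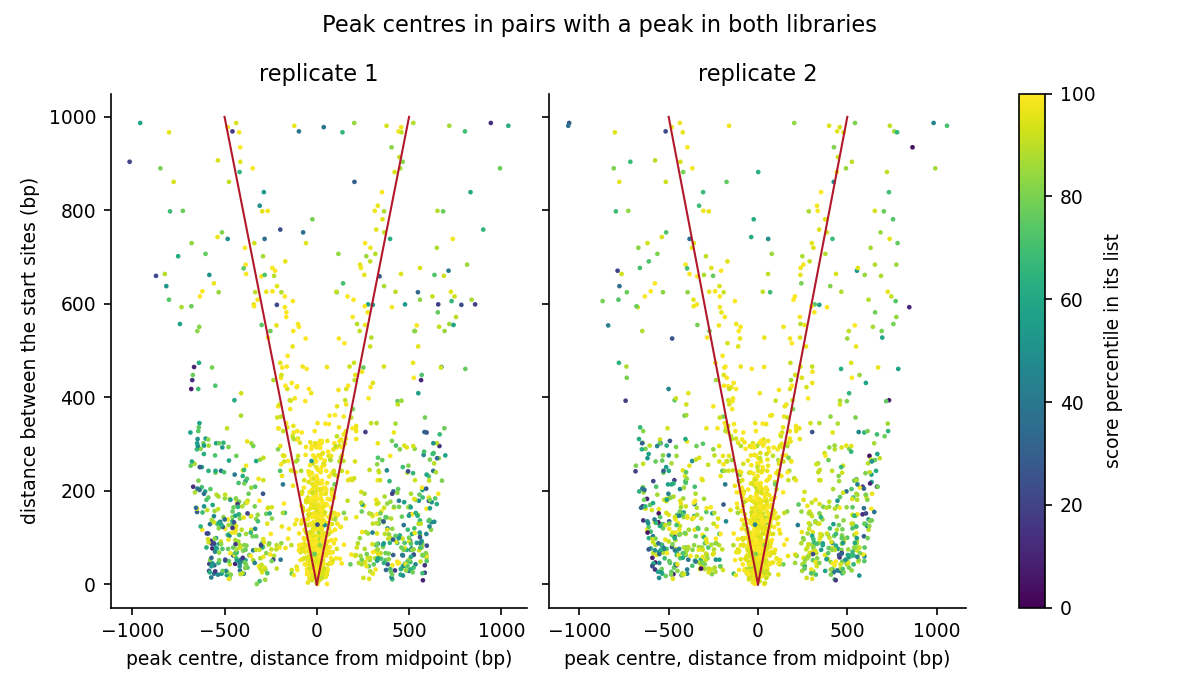
Each point is a peak of an open pair, placed by the distance of its centre from the midpoint between the start sites (x axis, bp; minus-strand gene to the left) and by the distance between the start sites (y axis, bp), coloured by score percentile, 1 panel per library. Red lines mark the start sites. High-ranked peaks fill the wedge between the lines below 300 bp and follow the lines above it, with lower-ranked peaks to both sides.

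The libraries placed the strongest peak alike at most pairs. Peak positions lie on a grid of 20 bp. The best peaks had the same centre in 225 open pairs and lay within 20 bp in 509 (74.3%), while in 46 pairs they lay 180 to 760 bp apart. At Txndc9/Eif5b the best peak of replicate 1 was 562.5 bp inside Txndc9 and that of replicate 2 lay 60.5 bp inside Eif5b, at percentiles 99.93 and 99.96. Each library had 3 peaks there.

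Hotspots mostly ran over both start sites. In 639 open pairs (93.3%) a hotspot covered both start sites in each library. The region held a single hotspot in 558 open pairs in replicate 1 and in 556 in replicate 2. The −log10 q-value of the best hotspot was at its cap of 100 in 681 open pairs (99.4%) in each library, against 42.9% of all hotspots in replicate 1 and 40.8% in replicate 2, so it does not rank these promoters. Hotspots below the cap had far lower values, and the median of all was 4.72 in replicate 1 and 4.38 in replicate 2. A value of 100 therefore does not show how small a q-value was.

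Start sites lay a median of 128 bp apart, and 602 pairs had them within 300 bp. Between 92.3 and 98.4% of pairs were open in the 5 distance bins up to 500 bp, and 86.8% of the 68 wider pairs. Wider pairs had more peaks. Open pairs with start sites 1 to 50 bp apart had 1.78 ± 0.784 peaks in replicate 1 and 1.77 ± 0.745 in replicate 2 (SD over 123 pairs), and those 501 to 1000 bp apart had 2.93 ± 1.10 and 2.97 ± 1.03 (SD over 59 pairs). Per kb of region the number stayed between 1.66 and 1.84 in all bins. In all, 418 pairs (56.9%) had 2 or more peaks in both libraries. This share depends on the flank, and was 28.5% with 250 bp and 80.8% with 1000 bp. Over equal windows, 52.2% of open start sites in pairs had 2 or more, against 45.8% at other genes and a background of 46.5%. The share is not particular to these pairs. It was 58.7% for head-to-head coding genes with overlapping starts and 50.8% for those beside a long noncoding RNA gene.

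**Figure D4:**
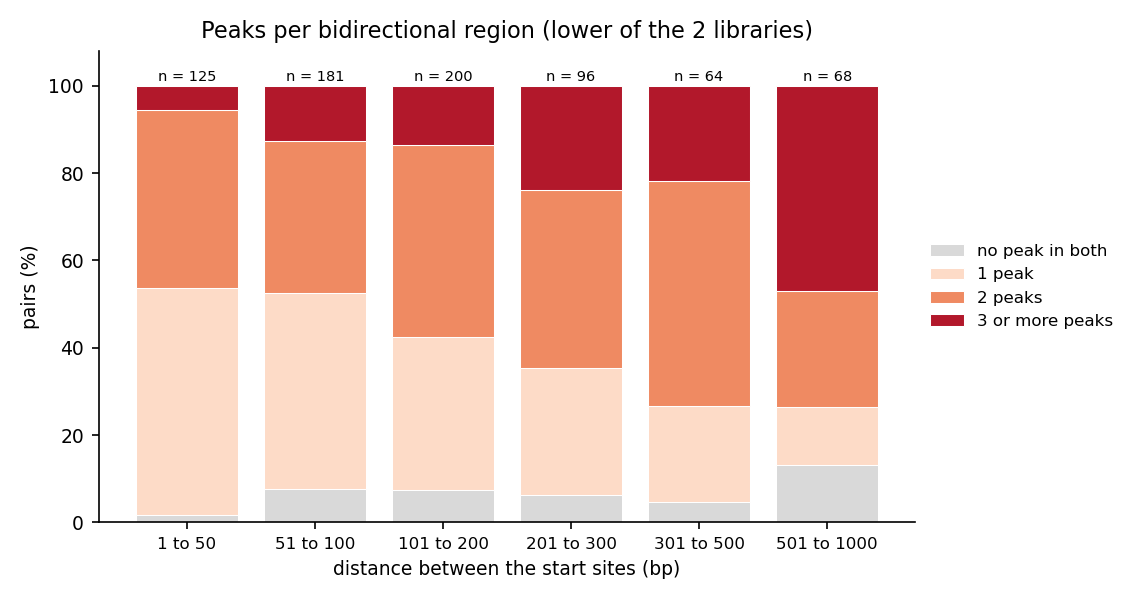
Share of pairs (y axis, percent) with no peak in both libraries, 1, 2, or 3 or more peaks, taking the lower count of the libraries, by distance between the start sites (x axis, bp), with the number of pairs above each bar. Pairs with 3 or more peaks are 7 of 125 in the closest bin and 32 of 68 in the widest.

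By the lower count of the libraries, the most peaks in a pair were 5. Btf3l4/Txndc12, a transcription factor-like gene and a thioredoxin of the endoplasmic reticulum, had 5 in each library, as did Zfp942/Zfp943 and Ccni/2010109A12Rik. The highest count in 1 library was 6, as at Tfb2m/Cnst in replicate 2, which had 3 in replicate 1. Only 48.8% of the 31-base words of the Zfp942/Zfp943 region occur once in the assembly, and its peaks overlap, leaving 3 with centres 150 bp or more apart. Mfsd8/Abhd18 had 4 peaks in replicate 1 and 5 in replicate 2, with 44.9% of words unique. Whether repeated sequence plays a part in these counts was not tested. Zranb3/R3hdm1, Asphd1/Sez6l2 and Wrn/Purg had 4 or 5 peaks in each library, with all words unique.

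Where the start sites were far apart, both often had a peak nearby. Of the 68 pairs with more than 500 bp between them, 42 (61.8%, interval 49.9 to 72.4%) had a peak in both libraries within 250 bp of each start site. A further 10 had a peak at 1 start site and none at the other, 9 had none at either, and at 7 the libraries differed. Where the start sites are little more than 500 bp apart, 1 peak midway can count for both. Within 150 bp of each start site, where a peak of 150 bp cannot reach both, the count was 36 of 68 (52.9%, interval 41.2 to 64.3%). Tbc1d10c/Ppp1ca had its best peak 34.5 bp from the start of Ppp1ca, a catalytic subunit of protein phosphatase 1, in replicate 1 and 14.5 bp from it in replicate 2. It had none near Tbc1d10c, a lymphocyte signalling inhibitor. The peak of Sirt6/Ankrd24 lay at Sirt6, a chromatin deacetylase, and that of Haghl/Ccdc78 at Haghl. Replicate 2 had a further peak between the start sites of Sirt6 and Ankrd24. At Nisch/Sema3g it was centred 9.5 bp from the start site of Sema3g, a secreted guidance protein, in both libraries. Another annotated start was open for Nisch, and likewise for Ankrd24 and Ubtd1. Mms19/Ubtd1 had peaks near Mms19, which serves iron-sulphur protein assembly, and Asphd1/Sez6l2 near Sez6l2.

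Closed pairs were poorer in CpG and often carried predicted gene names. The region's CpG observed/expected ratio had a median of 0.55 over the 44 closed pairs and 0.77 over the 685 open pairs. In 16 closed pairs (36.4%) a gene had a predicted name (Gm with a number, or ending in Rik), against 57 open pairs (8.32%). In 14 closed pairs, another annotated start of either gene had a peak in both libraries, as at Slc27a5/Trim28, Ccnt1/4930415O20Rik and Dgcr2/Tssk2.

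Among the closed pairs with the highest CpG ratio were Hist1h2bq/Hist1h2ao and Hist1h2ap/Hist1h2br, at 0.92 and 0.91. None of their 31-base words occurs only once in the assembly, so a missing peak there cannot be told apart from reads that could not be placed. N4bp3/D930048N14Rik, with a predicted name, stood at 0.80. The next without a predicted name were Ppp1r3d/Fam217b, with a glycogen-targeting phosphatase subunit, Lyzl4/Vipr1, with a receptor for vasoactive intestinal peptide, and Gpc2/Stag3, with a meiotic cohesin subunit. All words of the Ppp1r3d/Fam217b, Lyzl4/Vipr1 and Gpc2/Stag3 regions were unique. Nr2e1/Ostm1 was closed at the shared site while another start of Ostm1 was open, and Nr2e1 is a nuclear receptor of neural stem cells. Hspa1a/Hspa1l, the heat-inducible HSP70 gene and its testis relative, had 62.1% unique words, and Hist1h2ba/Hist1h2aa, testis variants of histones H2B and H2A, had 83.1%. In all, 35 of the 44 closed regions and 653 of the 685 open ones had over 90% unique words.

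The 5 pairs with a peak in 1 library only had low-ranked peaks. Rnf151/Rps2 had 2 peaks in replicate 1, the better at percentile 48.41, and none in replicate 2, while another start of the ribosomal gene Rps2 was open in both. Hist1h2bf/Hist1h2ad, with only 39.7% unique words, stood at 13.79 and Duox2/Duoxa2 at 3.49 in replicate 1 only. Rbm7/Gm5617 was at 24.20 in replicate 1 only, and Nt5c3b/Klhl10 at 17.32 in replicate 2 only.

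Several gene classes had all of their pairs open. All 32 pairs with a DNA repair or replication gene were open, as were all 20 with a respiratory chain gene, all 18 with a mitochondrial ribosomal protein, 14 with a subunit of RNA polymerases or Mediator, 7 with a proteasome subunit, 5 with a tRNA synthetase and 4 with a mitochondrial import gene. Of unpaired genes, 78 of 88 DNA repair, 69 of 76 respiratory chain and 56 of 60 mitochondrial ribosome genes were open. The share of all pairs that were open was already 93.3%, so these counts do not set the classes apart. Cytosolic ribosomal proteins had 9 of 10 pairs open, ubiquitin enzymes 27 of 29, zinc finger proteins 22 of 23 and solute carriers 15 of 16.

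The classes also differed in how many of their genes belonged to pairs, against 6.96% of all genes. Core histones had 27 of 76 genes in pairs (35.5%), DNA repair and replication 31 of 119 (26.1%), RNA polymerase and Mediator 14 of 56 (25.0%) and the mitochondrial ribosome 18 of 78 (23.1%). Keratins had none of 110, collagens 2 of 42, and olfactory and vomeronasal receptors 1 of 1455, Vmn1r4, which starts beside Nt5c3. Histone pairs were open at 10 of 14. Hist1h2an/Hist1h2bp, among the open ones, had its best peak at 99.59 in replicate 1 and 95.71 in replicate 2, with 44.9% unique words.

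Sequence motifs were counted on both strands from 250 bp before to 50 bp after each start site, the paired ones against all others. Windows of partners overlap where start sites are close, so a match can count for both. A paired window then also holds promoter sequence of the partner, which by itself can raise the paired shares. The ETS motif CCGGAAG was found at 27.6% of paired start sites against 9.78% of others, and at 11.0% of all. The NRF1 motif GCGCANGCG stood at 20.7% against 7.23% (8.17% of all) and the YY1 motif AAGATGGC at 8.15% against 2.54% (2.93% of all). The shares differed less from those of other open promoters of like CpG content, although the paired shares cover all 1448 start sites, open or not. Among other open start sites weighted to the CpG bins of the pairs, ETS stood at 17.7%, NRF1 at 14.5% and YY1 at 4.28%.

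The SP/KLF motif GGGCGG was at 68.9% of paired start sites and 41.8% of others (43.7% of all), but at 67.1% of the weighted open ones. The NFY motif CCAAT was at 43.6% against 38.2% (38.6% of all). Fewer paired start sites held the TATA box letters TATAAA, 4.14% against 13.4% (12.7% of all), or the AP-1 motif TGANTCA, 3.18% against 7.15% (6.88% of all). Among the weighted open start sites these stood at 6.55% and 4.15%. The CRE motif TGACGTCA (4.63% against 2.26%, 2.43% of all), the E2F motif TTCCCGCC (5.73% against 2.77%, 2.97% of all) and the E-box CACGTG (11.6% against 7.54%, 7.82% of all) were also at a larger share of paired start sites. Their weighted shares were closer, at 3.80% for CRE, 4.74% for E2F and 10.6% for the E-box, and NFY stood at 37.8%. The ZNF143 motif TACAATTCC was rare, at 0.691% against 0.491% (0.505% of all) and 0.701% of the weighted ones. The E2F and SP/KLF motifs can overlap, since their letters share a run. A match describes letters and not a bound site.

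**Figure D5:**
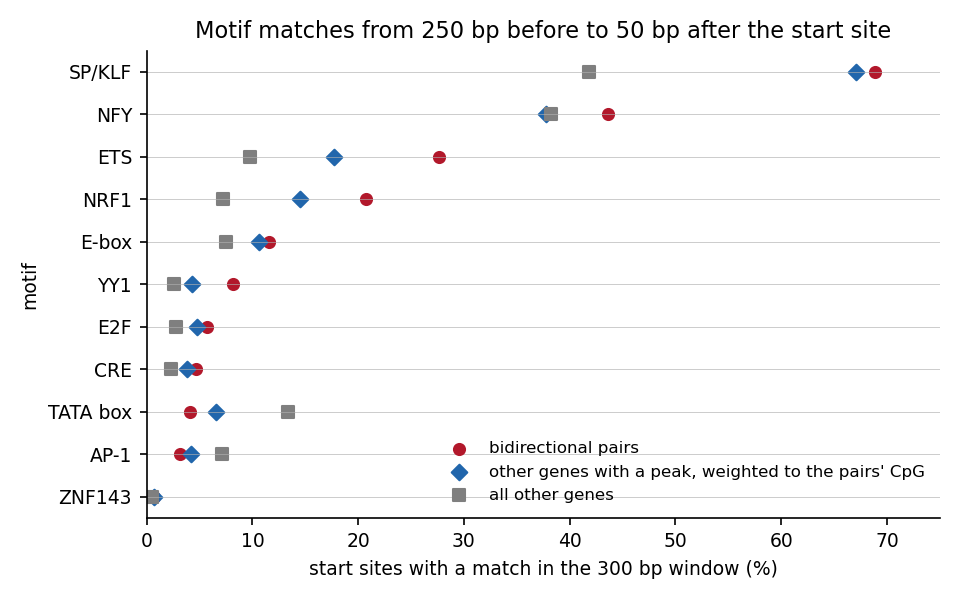
Share of start sites with a motif match (x axis, percent) for 11 motifs (y axis). Red circles are bidirectional pairs, blue diamonds other genes with a peak weighted to the CpG content of the pairs, and grey squares all other genes. Red lies to the right of the other symbols for ETS, NRF1 and YY1 (27.6%, 20.7% and 8.15%) and to the left of them for the TATA box (4.14%).

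Within the pairs, the span plus 100 bp on each side was searched in the same way. An ETS match lay in 228 of 685 open pairs (33.3%) and in 1 of 44 closed pairs (2.27%). NRF1 matches lay in 24.5% of open and 11.4% of closed pairs, SP/KLF in 76.1% and 54.5%, and YY1 in 11.2% and 2.27%. CRE matches lay in 5.26% and 2.27%, E-box matches in 13.9% and 13.6%, and NFY matches in 49.2% and 47.7%. Others were found in a smaller share of open than of closed pairs, with E2F at 6.57% and 13.6%, AP-1 at 3.80% and 9.09%, TATAAA at 5.11% and 6.82% and ZNF143 at 0.730% and 2.27%. The closed shares of these 4 motifs rest on 6, 4, 3 and 1 pairs. With 44 closed pairs, a few pairs more or less move these shares. They were not weighted by CpG content, and the closed regions were poorer in CpG.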

How the data were processed

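DNase-seq of MN1 (2 libraries) was read from the deposited peak and hotspot lists. The peak score was made by the authors and lies between 1 and 150. The hotspot value is a q-value on the −log10 scale, deposited by the authors with a cap of 100. Per the notes supplied with the files, the lists (mm10) were made library by library from filtered alignments and were not pooled. The names of the aligner and the peak caller, and the cutoff, were not given in the sources used here. With unknown read depth the precision cannot be set from reads.

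Entries present more than once were kept once (43 extra in replicate 1, 20 extra in replicate 2). A peak counted from 1 bp of overlap. Percentiles are ranks within a list. Intervals are 95% Wilson intervals. A region's 31-base words were counted over the assembly on both strands. No test was made, since there is 1 group. Counting was checked on made-up genes and peaks, in Python 3.11.15 and NumPy 2.4.6. Alternatives changed the distance limit, flank, overlap, score minimum, transcript set and library.

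The members, gene classes, motifs and textbook pairs were chosen with earlier results of these data known. Named pairs were the textbook pairs, those with the highest percentile, the closed ones richest in CpG, those in 1 library, those with most peaks, the one-sided wide ones and examples per class. Predicted names were passed over, and 1 textbook pair is not reported here by name. Some symbol patterns of the gene classes were tightened after the data were seen, because they matched unrelated genes.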

Additional observations from a re-analysis of the deposited data

How the results depend on the processing

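The 8 summary values were recomputed under the alternatives, 90 values in all, of which 62 stayed within the interval of the reported value and 28 left it. Shares cannot change sign. The difference between paired and other start sites could, and it stayed positive under every alternative. Including pairs whose starts overlap by up to 1 kb and keeping only regions with 90% or more unique words were chosen after seeing the data. Without pairs holding a histone gene or a predicted name, 95.7% of pairs had a peak, and 95.7% a hotspot, in both libraries, with 95.0% of start sites open and a difference from other genes of 44.0 points. Start sites of pairs were open at 94.1% with a limit of 500 bp and at 91.0% with a flank of 250 bp, and the difference was 43.9 points for peaks scoring at least the median of their list. Best peaks in the top 10% made up 93.9% with a limit of 500 bp, 93.6% with 300 bp and 87.1% with overlapping starts, and 93.2 to 93.9% without 1 library.

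Counts of peaks moved most. The share of peaks centred between the start sites was 36.2% over both libraries, and 33.5% with a limit of 300 bp, 38.8% with the median score as a minimum, 39.5% with an overlap of 75 bp, 38.7% with basic transcripts, 32.5% with overlapping starts, and 34.1 to 38.3% without 1 library. The flank sets its denominator: it was 51.1% at 250 bp and 23.9% at 1000 bp. Pairs with 2 or more peaks were 53.3% with a limit of 300 bp, 50.7% with the median score as a minimum, 49.3% with an overlap of 75 bp, 61.2% with overlapping starts, 66.8 to 68.0% in a single library, 28.5% with a flank of 250 bp and 80.8% with 1000 bp. Limits of 500 and 300 bp leave no pairs for the count of wide pairs, and letting in overlapping starts cannot change it. No paired analysis was possible because there is 1 group and no test.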

Other observations

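The same rule found 20 head-to-head pairs on the X chromosome, which the counts above leave out. A peak lay in both libraries in 14 of them (70.0%), and 6 had none in either. Other start sites on the X chromosome were not counted, so this share has no background and was not compared with the autosomes. Open pairs included Idh3g/Ssr4, a subunit of the citric acid cycle enzyme isocitrate dehydrogenase and a translocon-associated protein, Psmd10/Atg4a, a proteasome chaperone and an autophagy protease, and Ndufa1/Rnf113a1, with a subunit of respiratory complex I. The pairs without a peak included Trpc5/Rtl4, with a neuronal cation channel, and Asb12/Pfn5.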
